A study of Mus musculus with 32 samples.

Results

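Messenger RNA was compared between mouse organoid cultures given dexamethasone (Dex, a synthetic glucocorticoid) and cultures of the same line that were not, at day 2 of retinal differentiation. The comparison rests on 4 of the 32 libraries of the series, chosen by their labels: 2 labelled as given Dex and 2 as not given it. All 4 came from a Mettl3 KO line that overexpresses the fusion WTMETTL3-GRBD, and all 4 were labelled as AGN treated (0.1 µM). The Dex cultures also had Dex at 10 µM, which the treatment notes list as given for 2, 4 or 6 days. The design text describes the fusion as cytosolic without Dex and as moved into the nucleus with it. WT at day 2 (the Rx:GFP line, with AGN at 0.1 µM, 2 libraries) and Mettl3 KO without the fusion at day 2 (AGN at 0.1 µM, 2 libraries) served as reference levels. Dex was not given to a line without the fusion, so an effect of Dex itself and one of the moved fusion cannot be told apart here. Whether the line is 1 clone, and which promoter drives the fusion, is not given in the sources used here.

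METTL3 is the catalytic subunit of the nuclear complex that writes N6-methyladenosine (m6A) on messenger RNA as it is made. METTL14 is its partner, WTAP and VIRMA form the scaffold, and RBM15 helps choose the transcripts. Methylated transcripts are bound by YTH proteins, of which YTHDF2 hastens their decay. In mouse embryonic stem cells, messages for pluripotency factors such as Nanog carry m6A, and cells that lack Mettl3 are known to be slow to leave the pluripotent state. In the first days of retinal differentiation, cells pass from naive through formative pluripotency, and Nodal signals, which favour mesendoderm over neural fates, decline.

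Levels are in FPKM (fragments per kilobase of transcript, scaled to the mapped fragments of each library), and a change is the mean difference of log2(FPKM + 1), Dex minus no Dex, over 2 libraries a group. The 4 libraries held an estimated 37.1 to 41.5 M fragments, and duplicates correlated across genes at 0.9946 with Dex and 0.9938 without. Pou5f1, which marks pluripotent cells, was between 765 and 813 FPKM. Of the 10 eye field markers, Otx2, which epiblast cells also express, was at 133 to 145 FPKM and Pax6 and Mab21l2 between 1.01 and 3.38, whereas Rax, Six3, Six6 and Lhx2 were each below 1 FPKM, and so was the eGFP reporter row. Mettl3 read 53.8 and 50.9 FPKM with Dex and 54 and 56.3 FPKM without, a change of -0.07 ± 0.06 (SE, adjusted p = 0.354) whose direction turned to 0.02 after rescaling. That row sums any transcript the authors assigned to the gene, so it does not separate the fusion from the knocked-out locus, and the knockout is known from the labels alone. At day 2 the same row read 40.2 and 41.2 FPKM in WT and 38.9 and 40.8 FPKM in KO. Nr3c1, which encodes the glucocorticoid receptor, read 1.48 and 1.72 FPKM with Dex and 2.48 and 2.85 FPKM without, lower with Dex by -0.49 ± 0.09 (SE, adjusted p = 2.98e-04).

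Many genes differed by small amounts. Of 16276 tested genes, 7204 (44.3%) passed a limma adjusted p of 0.05, of which 2070 (12.7%) were higher and 5134 (31.5%) lower with Dex. That split depended on scaling: after median-of-ratios rescaling, 3044 (18.7%) were higher and 3669 (22.5%) lower, so the share of higher calls went from 28.7% to 45.3%. Under both scalings the same direction was called for 2070 higher (12.7%) and 3669 lower (22.5%) genes. The median change of all tested genes was -0.08 as deposited and -0.02 rescaled. Only 33 genes (0.203%) rose and 43 (0.264%) fell by at least 1 on the log2 scale. Both Dex libraries lay above both others for 3642 genes (22.4%), and below both for 7768 (47.7%). Since the labels do not say that duplicates were separate cultures, p-values measure only the spread between duplicate libraries, pooled over all 32 in 16 groups.

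The 12 largest falls were Lefty2, Smad7, Ccdc106, Lefty1, Rpl10l, Phlda2, H3c8, Tcf15, Usp11, Nodal, Mymx and Adnp, from -1.89 to -1.04. Usp11, a deubiquitinase on the X chromosome, read 2.78 and 3.52 FPKM with Dex and 7.54 and 7.78 FPKM without, and Adnp, a chromatin protein, read 2.58 and 3.16 FPKM with Dex and 6.85 and 7.02 FPKM without. Pairs that do not overlap were a condition for naming these falls and the rises below, so their separation is not a further result. Ccdc106 read 2.61 and 2.06 FPKM with Dex and 7.85 and 7.69 FPKM without. The histone gene H3c8 read 2.06 and 2.80 FPKM with Dex and 5.70 and 7.14 FPKM without. Rpl10l is an intronless copy of Rpl10, and Lefty1 and Lefty2 are close paralogs, so fragments shared with the copy make their single values less certain.

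The 12 largest rises were Bc1, H2ac14, Krtdap, Vps39, Calml4, Lgals1, Pla2g1b, Krt18, Srgn, Rab25, Rsph1 and Nnat. Lgals1, which encodes the secreted lectin galectin-1, read 161 and 161 FPKM with Dex and 64.3 and 65.2 FPKM without, a change of 1.30 ± 0.06 (SE, adjusted p = 5.57e-12). WT read 119.9 and 121 FPKM and KO 59.8 and 64.4 FPKM, so the Dex libraries stood above all others at this day. Nnat, an imprinted gene of neural and endocrine cells, read 152 and 151 FPKM with Dex and 75.5 and 73 FPKM without (1.02 ± 0.05 SE, adjusted p = 7.10e-11), and Calml4, a calmodulin-like protein, read 36.9 and 36.7 FPKM with Dex and 13.2 and 14.8 FPKM without (1.34 ± 0.17 SE, adjusted p = 4.18e-06). Calml4 in WT read 30.9 and 36.9 FPKM, a range that spans the Dex values. Rsph1, a protein of cilia, read 15.8 and 14.3 FPKM with Dex and 6.82 and 7 FPKM without (1.02). Srgn, a proteoglycan core, read 9.33 and 9.46 FPKM with Dex and 4.20 and 3.89 FPKM without (1.04) and stood far higher in WT, at 41.2 and 44.5 FPKM.

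Several of these rises were insecure. Bc1, a short noncoding RNA, was listed at 0 in both no Dex libraries and at 11.5 and 12.8 FPKM with Dex, but also at 0 and 14.2 FPKM in the WT duplicates. Its gene is shorter than the usual sequenced fragment. H2ac14, annotated as an unprocessed pseudogene, read 18.6 and 12.9 FPKM with Dex and 2.55 and 0 FPKM without, with 2.23 and 24.4 FPKM in the WT duplicates. It lost its call without Dex library 1, Dex library 2 or no Dex library 2 (adjusted p = 0.13, 0.076 and 0.234), and in a fit of the 4 compared libraries alone (adjusted p = 0.0549). Krtdap rested on 1 library, with 1.86 and 8.53 FPKM in the Dex pair, and without the second its change was 1.20 (adjusted p = 0.105), while the 4 libraries alone gave an adjusted p of 0.102. Vps39 lost its call without any 1 of the 4 libraries, with adjusted p between 0.0511 and 0.0663, and Rab25 with a pseudocount of 0.1 (adjusted p = 0.0679).

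Genes of the Nodal pathway fell furthest of all lists. Nodal is a TGF-beta family ligand, and it induces its own gene and those of its inhibitors. Of 9 listed genes, 8 were tested, and 7 were called lower and 1 higher, where 31.5% and 12.7% of all tested genes were. The median change was -0.87 (-0.80 rescaled) against -0.08 for all tested genes. The ligand gene Nodal (chromosome 10, 61417972 to 61425338, plus strand, GRCm38) read 3.75 and 3.96 FPKM with Dex and 8.95 and 9.38 FPKM without. Its Dex pair lay below every other day 2 library, WT reading 7.46 and 7.61 FPKM and KO 13.9 and 13.3 FPKM, and the change was -1.07 ± 0.06 (SE, adjusted p = 9.73e-11). In this bulk RNA, fewer cells that express a gene and less of its RNA per cell cannot be told apart.

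Inhibitors of the pathway that Nodal itself induces had the largest falls. Lefty2 (chromosome 1, 180893108 to 180899103, plus strand) read 5.50 and 6.13 FPKM with Dex and 25.1 and 23.5 FPKM without, 4.18-fold lower with Dex and a change of -1.89 ± 0.08 (SE, adjusted p = 4.82e-12). Lefty1 read 2.96 and 2.39 FPKM with Dex and 7.61 and 9.45 FPKM without (-1.37 ± 0.14 SE, adjusted p = 3.01e-07), and Smad7, an intracellular inhibitor of TGF-beta receptors, read 2.61 and 2.21 FPKM with Dex and 8.43 and 8.16 FPKM without (-1.45 ± 0.07 SE, adjusted p = 2.30e-11). For these 3 genes the Dex pair lay below the WT pair, which was 15.1 and 16.3 FPKM for Lefty2, 5.13 and 6.76 for Lefty1 and 5.18 and 5.11 for Smad7. Follistatin (Fst), which traps activin, read 2.82 and 3.19 FPKM with Dex and 4.90 and 5.86 FPKM without (-0.67 ± 0.12 SE, adjusted p = 1.89e-04).

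The parts of the pathway that receive the signal moved less. The receptor gene Acvr2b read 9.19 and 9.67 FPKM with Dex and 13.7 and 12.7 FPKM without (-0.45 ± 0.07 SE, adjusted p = 6.30e-05), close to WT at 9.57 and 9.88 FPKM. The co-receptor gene Tdgf1 (Cripto) read 76.3 and 77.7 FPKM with Dex and 108 and 97.9 FPKM without (-0.41 ± 0.06 SE, adjusted p = 1.15e-05). Foxh1, the DNA-binding partner of SMAD proteins, went the other way and read 123 and 122 FPKM with Dex and 110.1 and 107 FPKM without (0.17 ± 0.04 SE, adjusted p = 0.00487). Cer1, a further secreted antagonist, was at or below 0.05 FPKM in all 4 libraries and was not tested. A SMAD palindrome, GTCT joined to AGAC, which reads the same on both strands, was in 0 of the 4 listed genes with a RefSeq promoter and in 0.213% of all 32851 promoters, which says only that these letters are not in those windows.

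**Figure D1:**
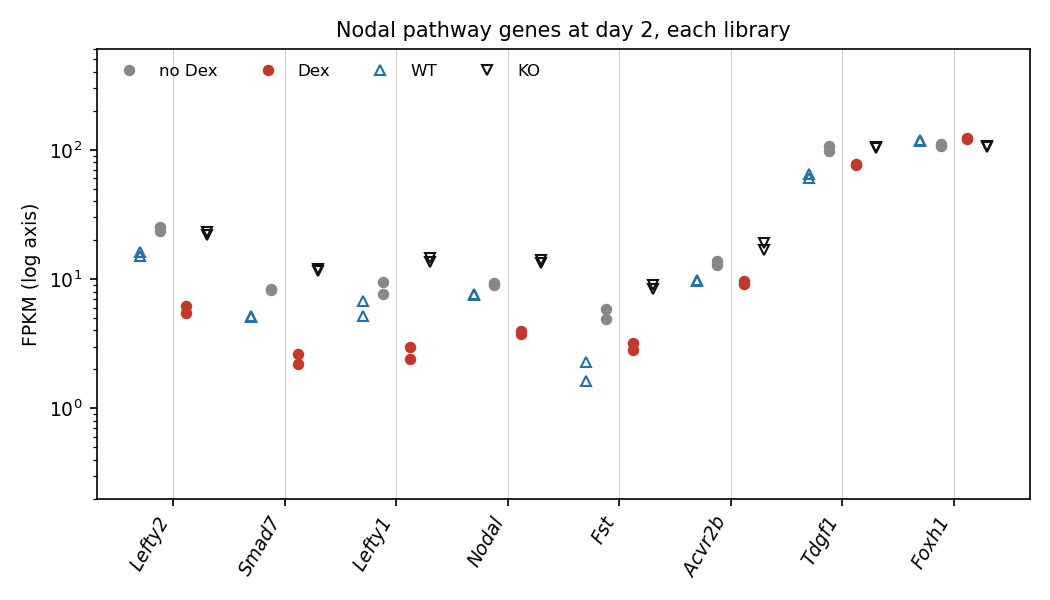
FPKM of the 8 tested Nodal pathway genes in each day 2 library (log axis), filled points for no Dex (grey) and Dex (red), open triangles for WT (blue) and KO (black). The Dex points lie below the no Dex points for 7 genes and above them for Foxh1, and for Lefty2, Smad7, Lefty1 and Nodal they also lie below WT.

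The median fall was largest at day 2. The day 0 libraries are of stem cells, and what Dex those labelled as Dex treated had received is unclear, since the treatment notes list it for organoids over 2, 4 or 6 days. A day 0 difference is therefore one between labels, here and in what follows. On the same scale the difference of Lefty2 was 0.38, -0.10 and 0.07 on days 0, 4 and 6, and the day 2 difference departed from them by -2.27 (adjusted p = 3.49e-11), -1.79 (adjusted p = 1.23e-09) and -1.97 (adjusted p = 1.24e-10). For Nodal the values were -0.02, -0.23 and 0.09, with departures of -1.04 (adjusted p = 9.08e-09), -0.84 (adjusted p = 4.97e-07) and -1.15 (adjusted p = 2.62e-09). Without Dex, Nodal read 44.2 and 44.5 FPKM at day 0, then 1.19 and 1.38 by day 4, and 0.82 and 0.85 by day 6, so differences on the later days were measured on low values. Of the 8 genes, 7 had a more negative Dex difference at day 2 than at day 0 and 1 a more positive one, where 32.4% and 12.6% of all tested genes did so (7319 genes, 45%, in either direction). Against day 4 the numbers were 6 and 2, where 20.7% and 10.5% of all genes did so (31.3% in either direction). Against day 6 they were 7 and 1, where 28.8% and 10.9% did so (39.7% in either direction). Foxh1 and Fst were the 2 that were more positive at day 2 than at day 4, where Fst fell further (-1.58).

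Most naive pluripotency genes fell with Dex. These are the transcription factors and signals of the ground state that stem cells leave first. Of 17 tested genes, 14 were called lower and 1 higher, where 31.5% and 12.7% of all tested genes were. The median of the 17 was -0.49 (-0.44 rescaled, with the same counts). Zfp42 (Rex1), a reporter gene for the naive state, read 64.6 and 64.3 FPKM with Dex and 127 and 127 FPKM without (-0.96 ± 0.05 SE, adjusted p = 1.09e-10). Esrrb, an orphan nuclear receptor, read 13.3 and 13.1 FPKM with Dex and 25.9 and 25.4 FPKM without (-0.91 ± 0.04 SE, adjusted p = 1.89e-11). In both genes the Dex pair lay below all WT and KO libraries, which were close to each other (Esrrb 23.2 and 23.7 FPKM in WT and 23.6 and 22.8 in KO). Tbx3 (-0.83), Nr5a2 (-0.67), Klf4 (-0.63), Nr0b1 (-0.62) and Klf2 (-0.56), all transcription factors of the naive network, also fell. Fgf4, the autocrine ligand that drives exit from this state, read 27.2 and 27.1 FPKM with Dex and 39.7 and 39.3 FPKM without (-0.52). Gbx2 was called higher, at 4.37 and 4.70 FPKM with Dex and 3.56 and 3.76 FPKM without (0.25 ± 0.07 SE, adjusted p = 0.0083), but not with a pseudocount of 0.1 (adjusted p = 0.189), nor without Dex library 2 or no Dex library 1 (adjusted p = 0.0805 and 0.0667), nor in the 4 libraries alone (adjusted p = 0.0691). Klf5 (-0.04) and the LIF target Socs3 (-0.06) were not called.

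The core factors did not move as 1 group. Nanog (ENSMUSG00000012396; chromosome 6, 122707489 to 122714633, plus strand, GRCm38) read 16.7 and 16.9 FPKM with Dex and 31.6 and 31.8 FPKM without, 1.88-fold lower with Dex (-0.88 ± 0.04 SE, adjusted p = 3.76e-11). The Dex pair sat just above WT (15.3 and 16.1 FPKM) and the no Dex pair just below KO (32.7 and 34.1 FPKM). Sox2 read 128 and 126 FPKM with Dex and 152 and 151 FPKM without (-0.26 ± 0.04 SE, adjusted p = 4.75e-05), below WT as well, at 156 and 155 FPKM. Pou5f1 (Oct4) read 813 and 787 FPKM with Dex and 779 and 765 FPKM without and was not called (0.05 ± 0.05 SE, adjusted p = 0.457), but passed after rescaling, with a change of 0.14 (adjusted p = 0.0312). The germline and naive marker Dppa3 read 17.3 and 16.1 FPKM with Dex and 27.9 and 30.0 FPKM without (-0.76 ± 0.11 SE, adjusted p = 1.18e-05), and 3 of 4 Dppa genes were called lower, 1 of 4 after rescaling.

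Nanog carries the letters GGACT, a favoured target of the METTL3 complex, 4 times in its 2211-base transcript ENSMUST00000012540, 2 of them in the coding sequence and 2 in the 3' UTR. That is 1.81 per kb, against a median of 1.02 per kb over the 16251 tested genes with a transcript, of which 85.7% held the letters at least once on the transcript strand. The windows around the coding matches are shown because Nanog is a message known to carry m6A and fell to near its WT level, with the letters in capitals (GENCODE M21 transcripts, GRCm38, plus strand; chr6:122711675-122711699 and chr6:122713386-122713410). A match is only a run of letters, and m6A itself was not measured in these libraries. Over 5 bins of protein-coding genes by GGACT per kb, the median change was -0.06 in the lowest. It was then -0.10, -0.11 and -0.12, and -0.09 in the highest (1.68 to 7.66 per kb), where Nanog lies. The Dex change thus did not fall steadily with density. Over the same bins, from lowest to highest, the median of KO minus WT at day 2 rose: 0.05, 0.07, 0.11, 0.13 and 0.17. The part of these letters in the Nanog fall was not tested.
Nanog first coding match: cagaagatgcGGACTgtgttctctc
Nanog second coding match: acttcggggaGGACTttctgcagcc

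Formative genes, which mark the state between naive and lineage-committed cells, were mixed. Of 12 tested, 7 were called lower and 1 higher (6 and 2 rescaled), where 31.5% and 12.7% of all tested genes were. The list median was -0.14. Tcf15, a factor of cells primed to leave the naive state, read 58.3 and 59.4 FPKM with Dex and 127 and 127 FPKM without (-1.09 ± 0.09 SE, adjusted p = 8.09e-09), below WT at 102 and 103 FPKM. The epiblast genes Pou3f1 and Fgf5 fell by smaller amounts, at 95.1 and 94.3 FPKM with Dex and 131 and 135 FPKM without for Pou3f1 (-0.48) and 35.7 and 37.4 FPKM with Dex and 51.8 and 49.96 FPKM without for Fgf5 (-0.47). The Fgf5 call was lost with a pseudocount of 0.1 (adjusted p = 0.169). Dnmt3b, the de novo DNA methyltransferase that rises as cells leave the naive state, read 389 and 386 FPKM with Dex and 321 and 321 FPKM without (0.27 ± 0.03 SE, adjusted p = 6.86e-08), toward WT at 426 and 423 FPKM and away from KO at 204 and 201.

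Genes of the fates that follow were mostly lower or not called. In the eye field list, 4 of 10 were called lower and none higher (2 lower rescaled, and 6 not called as deposited). Of all tested genes, 31.5% were lower and 12.7% higher (22.5% and 18.7% rescaled), so the eye field falls were near the share of all genes. Mab21l2 read 1.01 and 1.01 FPKM with Dex and 1.68 and 1.57 FPKM without (-0.38) and Pax6 1.75 and 1.58 FPKM with Dex and 2.38 and 3.38 FPKM without (-0.53 ± 0.15 SE, adjusted p = 0.00696), the latter losing its call without no Dex library 2 or Dex library 2 (adjusted p = 0.131 and 0.0513), and in the 4 libraries alone (adjusted p = 0.0855). Otx2, expressed from epiblast to eye, read 133 and 135 FPKM with Dex and 145 and 143 FPKM without, a call lost after rescaling (adjusted p = 0.729). Neural progenitor genes showed 6 of 12 lower and none higher, among them Sox1 (1.33 and 1.25 FPKM with Dex and 1.98 and 2.20 FPKM without; -0.43) and the fatty acid binding protein gene Fabp7 (3.69 and 4.77 FPKM with Dex and 8.14 and 6.40 FPKM without; -0.66). The Fabp7 call was lost with a pseudocount of 0.1 (adjusted p = 0.0526) and in the 4 libraries alone (adjusted p = 0.0664). After rescaling 5 were lower and 1 higher. Of 10 early neuron genes, 2 were higher and none lower. Elavl3, an RNA-binding protein of neurons, read 6.83 and 6.51 FPKM with Dex and 3.55 and 3.27 FPKM without (0.80 ± 0.07 SE, adjusted p = 5.30e-08), and beta-III tubulin (Tubb3) read 76.3 and 77.8 FPKM with Dex and 64.7 and 65 FPKM without (0.25 ± 0.03 SE, adjusted p = 8.24e-07). The other 8 were not called, among them the proneural factor Neurod1, at 4.33 and 4.05 FPKM with Dex and 4.46 and 4.17 FPKM without.

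Several transcripts for the m6A machinery fell to near their WT level. Of 10 writer genes, 6 were called lower and 1 higher under either scaling, where 31.5% and 12.7% of all tested genes were as deposited. The writer median was -0.26 (-0.18 rescaled). Wtap, the scaffold, read 55 and 58 FPKM with Dex and 98.3 and 93.7 FPKM without (-0.75 ± 0.03 SE, adjusted p = 1.15e-11), and WT read 55.5 and 54.7 FPKM against 89.3 and 88.4 in KO. Rbm15 read 7.19 and 7.59 FPKM with Dex and 12.7 and 12.9 FPKM without (-0.72 ± 0.05 SE, adjusted p = 7.21e-10), with WT at 6.71 and 6.47 and KO at 14.6 and 13.9 FPKM. Virma, the other scaffold subunit, read 8.44 and 8.07 FPKM with Dex and 11.5 and 11.3 FPKM without (-0.42 ± 0.04 SE, adjusted p = 4.76e-08), with WT at 8.24 and 8.01 FPKM. For Wtap and Virma the Dex values lay beside WT, whereas the no Dex values were above those of KO. Mettl16, which methylates the U6 RNA and a methionine cycle message, read 20.8 and 21.9 FPKM with Dex and 32.5 and 32.5 FPKM without (-0.58), and Mettl5, a ribosomal RNA methyltransferase, rose to 28.4 and 27.7 from 22.7 and 22.6 FPKM (0.30). Mettl14, the gene of the METTL3 partner, read 22.9 and 22.4 FPKM with Dex and 21.5 and 23.1 FPKM without. It was not called (0.02, adjusted p = 0.751).

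Among readers and erasers, 8 of 12 were lower and 3 higher (7 and 3 rescaled), where 31.5% and 12.7% of all tested genes were. Ythdf2, which hastens decay of methylated RNA, read 20.3 and 18.8 FPKM with Dex and 32.8 and 32.8 FPKM without (-0.72 ± 0.04 SE, adjusted p = 8.73e-11), with WT at 20.3 and 20.3 and KO at 33.6 and 33.2 FPKM. The nuclear reader Ythdc1 read 73.2 and 71.8 FPKM with Dex and 104 and 107 FPKM without (-0.53 ± 0.04 SE, adjusted p = 2.13e-09), and its WT pair was 73 and 71.5 FPKM. The demethylase genes Fto (19 and 19.6 FPKM with Dex and 26.7 and 26.4 FPKM without; -0.44) and Alkbh5 (15.7 and 16.5 FPKM with Dex and 20.0 and 19.8 FPKM without; -0.29) fell as well. Hnrnpc (0.16), Igf2bp2 (0.14) and Igf2bp3 (0.16), whose proteins are linked to stabilising or structuring methylated RNA, were higher. Igf2bp2 lost its call without Dex library 1 or no Dex library 2 (adjusted p = 0.0843 and 0.0513) and Igf2bp3 without Dex library 2 or in the 4 libraries alone (adjusted p = 0.0796 and 0.0707).

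**Figure D2:**
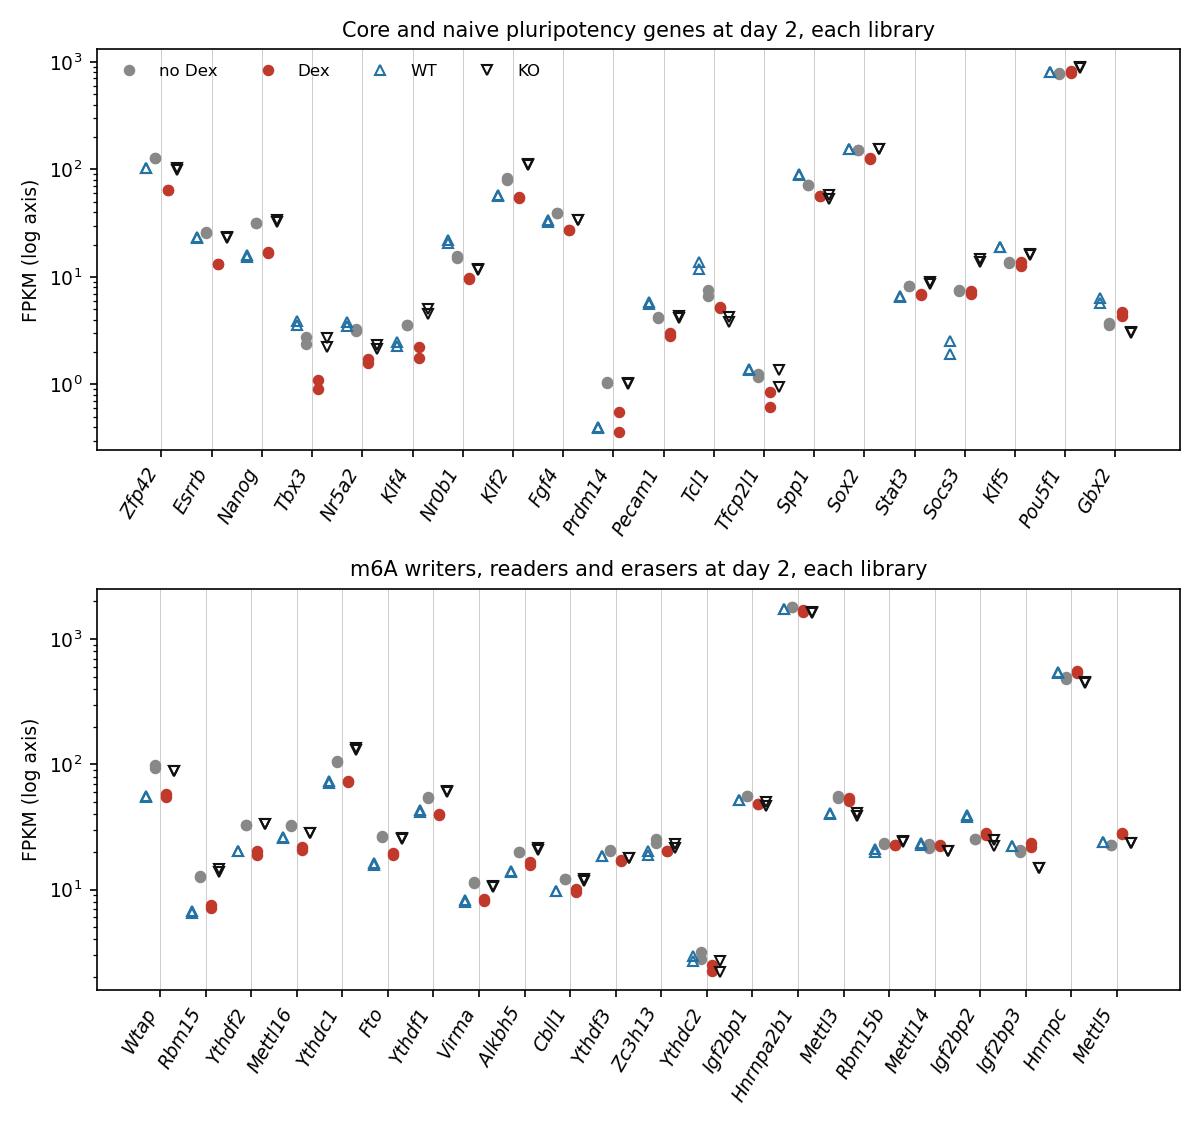
FPKM in each day 2 library (log axis) of core and naive pluripotency genes (top) and of m6A writers, readers and erasers (bottom), with symbols as labelled and genes ordered by their Dex change. Wtap, Rbm15, Ythdf2 and Nanog with Dex lie beside WT, whereas Zfp42 and Esrrb with Dex lie below all other libraries.

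Targets of p53, the DNA damage and stress regulator, fell without exception among those called. Of 15 tested, 12 were lower and none higher (11 lower rescaled), where 31.5% and 12.7% of all tested genes were. The median of the 15 was -0.35. Mdm2, the ubiquitin ligase that p53 induces against itself, read 36.7 and 35.4 FPKM with Dex and 58.3 and 57.9 FPKM without (-0.67 ± 0.04 SE, adjusted p = 7.62e-10). The membrane protein gene Perp read 5.81 and 6.02 FPKM with Dex and 10.1 and 9.64 FPKM without (-0.65 ± 0.08 SE, adjusted p = 4.18e-06). The cell cycle inhibitor Cdkn1a (p21) read 27.3 and 28.4 FPKM with Dex and 37.7 and 34.1 FPKM without (-0.35 ± 0.06 SE, adjusted p = 9.19e-05). The receptor gene Eda2r read 5.57 and 5.56 FPKM with Dex and 8.20 and 8.21 FPKM without (-0.49). WT lay a little above the Dex values for Mdm2 (40.7 and 38.8 FPKM), below them for Perp (3.27 and 3.49) and between them for Cdkn1a (28 and 28). Bax, which permeabilises mitochondria, read 671 and 668 FPKM with Dex and 724 and 717 FPKM without and was not called (adjusted p = 0.0529). Cell cycle genes moved both ways, 9 of 17 lower and 5 higher (7 and 6 rescaled). Cyclin D1 (Ccnd1) read 35.7 and 34.6 FPKM with Dex and 49.6 and 49.6 FPKM without (-0.49), while the mitotic cyclin gene Ccnb1 rose to 129 and 133 from 107 and 108 FPKM (0.28).

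Genes of the integrated stress response, which ATF4 drives when amino acids are short or proteins misfold, were mostly higher. Of 12 tested, 7 were higher and 1 lower (8 and 0 rescaled), where 12.7% and 31.5% of all tested genes were. Ddit3 (CHOP) read 29.2 and 29.4 FPKM with Dex and 18.8 and 18.2 FPKM without (0.64 ± 0.07 SE, adjusted p = 3.79e-07), Atf4 itself 94.6 and 96.3 FPKM with Dex and 80.0 and 80.0 FPKM without (0.25) and the glutathione-degrading enzyme gene Chac1 14.3 and 13.7 FPKM with Dex and 10.5 and 10.2 FPKM without (0.40). The serine synthesis genes Phgdh (0.36) and Psat1 (0.34) rose with them. Slc7a5, an amino acid transporter, was the called fall, at 102 and 103 FPKM with Dex and 116 and 114 FPKM without, and was not called after rescaling (adjusted p = 0.0554). Ddit3 and Atf4 were also higher in WT, at 34.2 and 37.2 and 120.2 and 117 FPKM, than in KO, at 23.7 and 22.1 and 82.8 and 83.8.

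Growth signals were followed through their feedback genes. Among all tested genes 31.5% were lower and 12.7% higher. Among FGF ligands and the ERK pathway's feedback inhibitors, 12 of 18 were lower and 2 higher (11 and 2 rescaled). Spry4 read 9.78 and 10.4 FPKM with Dex and 13.8 and 14.5 FPKM without (-0.45 ± 0.04 SE, adjusted p = 5.75e-08) and Dusp6, an ERK phosphatase, 37.9 and 36.2 FPKM with Dex and 44.5 and 46.2 FPKM without (-0.28 ± 0.05 SE, adjusted p = 9.52e-05). Another ERK phosphatase gene, Dusp4, rose to 56.3 and 56.5 from 44.9 and 45.7 FPKM (0.31). Among Wnt targets and antagonists, 7 of 18 were lower and 1 higher under either scaling and 10 were not called, near the share of all genes. Axin2, the general readout of beta-catenin, read 1.97 and 2.50 FPKM with Dex and 4.20 and 4.19 FPKM without (-0.69 ± 0.08 SE, adjusted p = 1.44e-06). Further negative regulators fell beside it: Znrf3, which removes Wnt receptors, read 2.51 and 2.55 FPKM with Dex and 5.49 and 4.98 FPKM without (-0.82), Nkd2, an inhibitor of Dishevelled, 2.67 and 2.69 FPKM with Dex and 5.82 and 5.73 FPKM without (-0.88), and Notum, which inactivates Wnt ligands, 12.3 and 14.3 FPKM with Dex and 25.9 and 24.3 FPKM without (-0.87). The WT and Dex ranges overlapped for Axin2 (2.07 and 2.27 FPKM in WT) and Nkd2 (2.54 and 2.83) but not for Notum (26.6 and 26.5). Sfrp2, a secreted Wnt antagonist, was the called rise (0.25).

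Notch pathway genes showed 8 of 15 lower and none higher (7 lower rescaled), where 31.5% and 12.7% of all tested genes were. The ligand gene Jag2 read 9.21 and 10.2 FPKM with Dex and 17.9 and 16.3 FPKM without (-0.76 ± 0.07 SE, adjusted p = 9.65e-08). The receptor gene Notch3 read 8.41 and 7.06 FPKM with Dex and 12.6 and 14 FPKM without (-0.71 ± 0.10 SE, adjusted p = 9.83e-06). Hes6, listed as a Hes family gene, read 86.7 and 87.5 FPKM with Dex and 104 and 102 FPKM without (-0.24). The ligand gene Dll1, at 4.36 and 4.19 FPKM with Dex and 4.13 and 4.57 FPKM without, was not called. Of 15 BMP genes, 4 were lower and 2 higher under either scaling, also near the share of all genes. The 2 rises were Id1 and Id3, whose proteins are immediate BMP targets that block neural bHLH factors. Id1 read 48 and 46.6 FPKM with Dex and 32.1 and 31 FPKM without (0.57 ± 0.02 SE, adjusted p = 6.42e-12). Id3 read 53.5 and 50.5 FPKM with Dex and 36.6 and 34 FPKM without (0.55 ± 0.04 SE, adjusted p = 3.75e-09). The other listed Id genes, Id2 and Id4, were not called higher. The ligand gene Bmp4 had a lower mean with Dex, 21.6 FPKM against 31.6 FPKM without. Both Id1 values lay above WT (33.8 and 33 FPKM) and KO (30.2 and 31.2). The decoy receptor gene Bambi fell (-0.47), as did Smad6 (-0.70), whose no Dex pair disagreed (2.61 and 0.96 FPKM) and which lost its call without no Dex library 1 or in the 4 libraries alone (adjusted p = 0.0581 and 0.209). Of 12 retinoic acid genes, 2 rose and 2 fell (3 and 2 rescaled). The 2 cytosolic binding proteins for retinoic acid parted, Crabp2 at 106 and 104 FPKM with Dex and 68.6 and 66.5 FPKM without (0.63 ± 0.04 SE, adjusted p = 8.12e-10) and Crabp1 at 36.2 and 35.8 FPKM with Dex and 45.8 and 48.5 FPKM without (-0.38 ± 0.04 SE, adjusted p = 2.23e-07).

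Most cytosolic ribosomal protein genes rose. Of 84 tested, 74 were higher and 3 lower (76 and 1 rescaled), where 12.7% and 31.5% of all tested genes were. The median of the 84 was 0.26 (0.35 rescaled). Their summed level was 233500 and 236300 FPKM with Dex and 197600 and 197900 without. Rpl22l1 read 199.6 and 204 FPKM with Dex and 129 and 128 FPKM without (0.64 ± 0.05 SE, adjusted p = 5.86e-09), Rpl24 1252 and 1241 FPKM with Dex and 872 and 872 FPKM without (0.52 ± 0.04 SE, adjusted p = 1.10e-08), and Rps7 1242 and 1287 FPKM with Dex and 985 and 928 FPKM without (0.40). The 3 falls were Rpl10l, the retrogene named above, Rpl41 (-0.11) and Rpl36al (-0.07), and the Rpl41 and Rpl36al calls were lost after rescaling, where Rpl36al turned to 0.03, and each without any of 3 single libraries (adjusted p up to 0.118 and 0.0857). Ribosomal protein genes have many near-identical pseudogene copies, and how the authors' counting divided such fragments is not given in the sources used here. The same genes had medians of -0.13, 0.03 and -0.20 on days 0, 4 and 6. For 79 genes the Dex difference was more positive on day 2 than on day 0, as it was for 12.6% of all tested genes. Against day 4 it was so for 73 of the ribosomal protein genes (10.5% of all), and against day 6 for 77 of them (10.9%). These genes are short, and over the 13614 tested protein-coding genes with a known transcript length the change fell with length: over 5 bins of equal size the median was 0.01 in the shortest, then -0.06, -0.11 and -0.15, and -0.18 in the longest. The day 0 order was the inverse, from -0.10 to 0.15. The part of transcript length in the ribosomal protein result was not tested.

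Messages for ribosomal proteins are known to begin with a run of pyrimidines that ties their translation to growth signals. A C at the annotated start followed by 4 pyrimidines was found at 13 of the 64 ribosomal protein genes with a RefSeq promoter, against 2.51% of all 32851 promoters (823), counted on the strand of the gene. The start windows of 3 of the 13 are shown because most of these genes rose, with the pyrimidine run in capitals and the start at base 11 (GRCm38.p6; Rps10 at chr17:27635230-27635254, minus strand; Rps21 at chr2:180257369-180257393, plus strand; Rps6 at chr4:86857353-86857377, minus strand).
Rps10: gcgcacgcccCTTCCTTTCCagcct
Rps21: aggacccgccCTCCTgcccaatagt
Rps6: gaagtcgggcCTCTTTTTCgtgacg

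The 3 printed genes read 5278 and 5278 FPKM with Dex and 4174 and 4251 FPKM without for Rps10 (0.33 ± 0.03 SE, adjusted p = 9.84e-08), 4126 and 4262 FPKM with Dex and 3675 and 3664 FPKM without for Rps21 (0.19 ± 0.03 SE, adjusted p = 2.82e-05) and 4068 and 4146 FPKM with Dex and 3276 and 3192 FPKM without for Rps6 (0.34 ± 0.02 SE, adjusted p = 1.01e-10). In each, both Dex libraries lay above both others, as they did for 22.4% of all tested genes. The 3 genes were picked for the highest mean level without Dex among the 13 with the run. The part of the pyrimidine run in their change was not tested.

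Markers of extraembryonic endoderm, a lineage that arises from stem cells beside the embryo proper, were slightly higher with Dex. Of 16 tested, 10 were higher and none lower under either scaling, where 12.7% and 31.5% of all tested genes were as deposited. The list median was 0.25. Amn, a membrane protein of absorptive visceral endoderm, read 3.76 and 3.42 FPKM with Dex and 1.45 and 1.32 FPKM without (0.94 ± 0.15 SE, adjusted p = 4.88e-05), and Dab2, an endocytic adaptor, 6.46 and 6.15 FPKM with Dex and 4.07 and 4.27 FPKM without (0.50 ± 0.09 SE, adjusted p = 1.16e-04). The defining transcription factors were low: Gata6 read 0.90 and 0.80 FPKM with Dex and 0.62 and 0.29 FPKM without (0.36 ± 0.10 SE, adjusted p = 0.00784), Gata4 1.11 and 1.28 FPKM with Dex and 0.80 and 0.79 FPKM without (0.29) and Sox17 2.62 and 2.11 FPKM with Dex and 1.26 and 1.51 FPKM without (0.49 ± 0.14 SE, adjusted p = 0.00666). Gata6 lost its call without Dex library 1 or no Dex library 2 (adjusted p = 0.0599 and 0.186), and Sox17 without Dex library 1 or no Dex library 1 (adjusted p = 0.083 and 0.0652). The 4 libraries alone called neither (adjusted p = 0.136 and 0.054), nor did a pseudocount of 0.1 call Sox17 (adjusted p = 0.0822). WT had far more of these markers, with Amn at 22.7 and 25.2 FPKM, Dab2 at 32.8 and 33.4 and Gata6 at 3.65 and 4.41, so the Dex values stayed far under WT. The summed level of the list was 110.2 and 110 FPKM with Dex, 89.8 and 97.3 without, 243 in WT and 88.6 in KO.

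Of 14 adhesion and epithelial genes, 7 were higher and 4 lower in the same libraries (7 and 1 rescaled). The shares of all tested genes were 12.7% and 31.5%. Krt18, a keratin of simple epithelia that extraembryonic endoderm also makes, read 31.7 and 31.9 FPKM with Dex and 14.4 and 15.2 FPKM without (1.05 ± 0.08 SE, adjusted p = 3.07e-09), and its partner Krt8 27.4 and 26.3 FPKM with Dex and 18 and 18.4 FPKM without (0.54 ± 0.07 SE, adjusted p = 5.94e-06). The tight junction gene Cldn7 read 54.3 and 51.1 FPKM with Dex and 30.6 and 26.9 FPKM without (0.86 ± 0.10 SE, adjusted p = 1.14e-06) and the adhesion gene Epcam 298 and 292 FPKM with Dex and 222 and 225 FPKM without (0.40 ± 0.06 SE, adjusted p = 4.88e-05). Cldn7 was above both WT (37.2 and 37.7 FPKM) and KO (47.6 and 47). Vimentin (Vim), usually a mesenchymal filament, rose as well, to 89.3 and 90.5 from 57.7 and 58.6 FPKM (0.62), and Zeb1, a repressor of epithelial genes, fell to 0.63 and 0.74 from 1.97 and 1.45 FPKM (-0.68). Cdh1 (E-cadherin), at 152 and 147 FPKM with Dex and 151 and 149 FPKM without, was not called. The part of extraembryonic endoderm cells in the keratin result was not tested.

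Among markers of other cell types that such cultures could hold, mesendoderm had 2 of 3 tested genes lower (1 rescaled), Fst among them, and T, Mixl1, Mesp1 and Evx1 were at or below 0.59 FPKM in the 4 libraries. The share of all tested genes was 31.5% lower (22.5% rescaled) and 12.7% higher. Of 10 neural crest genes 3 were lower, of 6 trophectoderm genes 3, and of 11 fibroblast genes 1, with 0 called higher in these lists (2, 1 and 1 lower rescaled). That fibroblast gene was Twist1, a mesoderm and crest factor, at 5.21 and 4.89 FPKM with Dex and 12.2 and 10.5 FPKM without (-1.03 ± 0.11 SE, adjusted p = 6.54e-07). The 9 tested two-cell-like genes had 1 higher and 2 lower.

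Imprinted genes, expressed from 1 parental copy, divided. Of 17 tested, 7 were higher and 6 lower (7 and 5 rescaled), where 12.7% and 31.5% of all tested genes were. The maternally expressed noncoding RNAs of the Dlk1-Meg3 region rose together. Meg3 read 1688 and 1701 FPKM with Dex and 1058 and 1094 FPKM without (0.66 ± 0.02 SE, adjusted p = 4.48e-13), Mirg 310 and 315 FPKM with Dex and 226 and 239 FPKM without (0.42 ± 0.05 SE, adjusted p = 4.14e-07) and Rian 658 and 655 FPKM with Dex and 556 and 551 FPKM without (0.24 ± 0.02 SE, adjusted p = 8.46e-08). All 3 lay above WT, where Meg3 read 894 and 896 FPKM, and above KO. Rtl1, the antisense partner in that region, also rose (0.27), and since no source here says that counting used strand, its reads cannot be told from those of the other strand. The Rtl1 call was lost with a pseudocount of 0.1 (adjusted p = 0.0926). Dlk1 in the same region fell (-0.50), a call lost without Dex library 2 or in the 4 libraries alone (adjusted p = 0.0587 and 0.0826). The growth-restraining genes Phlda2 (8.48 and 8.41 FPKM with Dex and 20.1 and 20.5 FPKM without; -1.17 ± 0.10 SE, adjusted p = 1.95e-08), Igf2r (4.19 and 3.82 FPKM with Dex and 8.40 and 8.33 FPKM without; -0.90 ± 0.05 SE, adjusted p = 3.11e-11) and Grb10 (-0.66) fell, while H19 (0.40) and Peg3 (0.48) rose.

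Dex acts through the glucocorticoid receptor, and established target genes were examined. Of 17 tested, 4 were higher and 5 lower (6 and 4 rescaled), where 12.7% of all tested genes were higher and 31.5% lower. Fkbp5, a widely used target, was lower, at 23.9 and 23.5 FPKM with Dex and 27.7 and 26 FPKM without (-0.17 ± 0.03 SE, adjusted p = 4.64e-04), a call lost after rescaling or in the 4 libraries alone (adjusted p = 0.0524 and 0.058). Klf9 also fell (23.9 and 24.5 FPKM with Dex and 30.1 and 28.8 FPKM without; -0.27), and Per1 was not called (-0.02). Metallothionein Mt1, close in sequence to Mt2, rose to 1254 and 1263 from 952 and 946 FPKM (0.41 ± 0.04 SE, adjusted p = 9.70e-08), Tsc22d3 (GILZ) read 5.93 and 5.60 FPKM with Dex and 4.68 and 5.11 FPKM without (0.20 ± 0.07 SE, adjusted p = 0.0314) and Sgk1 34.4 and 32.6 FPKM with Dex and 28.4 and 25.6 FPKM without (0.30 ± 0.11 SE, adjusted p = 0.0342). WT, which had no Dex, read 52.1 and 47 FPKM for Sgk1, above both Dex libraries, and 1216 and 1211 FPKM for Mt1, below both. The Sgk1 call was lost without Dex library 1, Dex library 2 or no Dex library 2 (adjusted p = 0.154, 0.067 and 0.214), and the Tsc22d3 call without Dex library 1 or no Dex library 1 (adjusted p = 0.171 and 0.218). Neither was called with no filter on low values (adjusted p = 0.0708 and 0.0585), and Tsc22d3 was called neither in the 4 libraries alone (adjusted p = 0.112) nor with a pseudocount of 0.1 (adjusted p = 0.0769).

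Sgk1 is the listed gene whose RefSeq promoter (250 bases before to 50 after the start) held the full receptor palindrome, AGAACA and TGTTCT with 3 bases between them, which reads the same on both strands. It was found in 1 of the 17 listed genes with a promoter and in 3 of all 32851 promoters (0.00913%). The looser form, GNACA and TGTNC with 3 bases between them, which the palindrome contains, lay in 156 promoters (0.475%), among them those of Fam107a, Mt1 and Sgk1. The Sgk1 promoter is printed because it holds the full palindrome (GRCm38.p6, chr10:21993640-21993939, plus strand). The part of this element in the Sgk1 change was not tested. The palindrome in capitals starts 189 bases before the start and ends 175 bases before it.
Sgk1: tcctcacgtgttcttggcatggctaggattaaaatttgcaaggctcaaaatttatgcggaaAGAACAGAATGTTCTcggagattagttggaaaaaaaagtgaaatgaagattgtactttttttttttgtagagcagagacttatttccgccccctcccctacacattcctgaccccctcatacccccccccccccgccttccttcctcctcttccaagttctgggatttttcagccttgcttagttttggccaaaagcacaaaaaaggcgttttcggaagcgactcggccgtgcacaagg

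**Figure D3:**
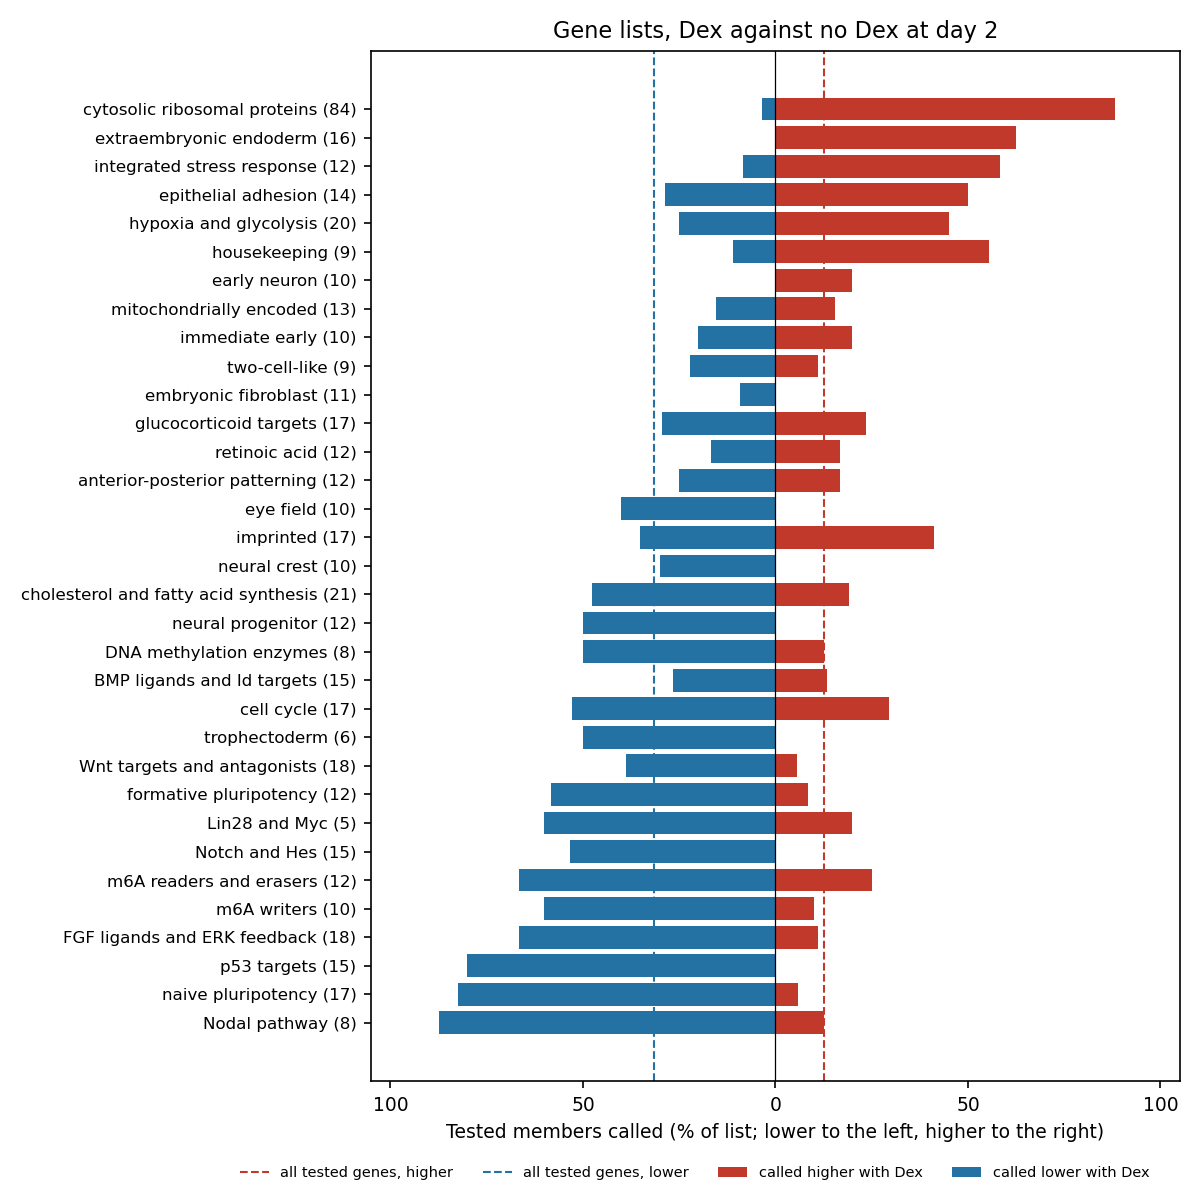
Share of each list's tested members called higher (red, right) or lower (blue, left) with Dex, number tested in parentheses, lists ordered by median change, dashed lines for all tested genes (12.7% higher, 31.5% lower). Cytosolic ribosomal proteins (74 of 84 higher) and the Nodal pathway (7 of 8 lower) stand at the ends.

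Genes that separate KO from WT at day 2 were chosen by their WT and KO levels, although the 4 compared libraries shared in the filter and the pooled spread of the fit. By limma with a change of at least 1, 577 genes (3.55%) were higher and 192 (1.18%) lower in KO than in WT. Of the 577, 384 (66.6%) were called lower with Dex and 17 (2.9%) higher, where 31.5% and 12.7% of all tested genes were, with a median of -0.42 (-0.35 rescaled). Of the 192, 86 (44.8%) were called higher and 14 (7.3%) lower, with a median of 0.24 (0.28 rescaled). The median of each set thus lay toward WT, and its size was below the 1 by which the genes were chosen. Among the genes named in the text, not all of which are in these sets, Wtap, Nanog and Nkd2 came within the WT range or near it. Lefty2 and Nodal passed below WT, and Dab2 and Srgn stayed well short of it. KO was above WT by 0.50 for Lefty2 and 0.78 for Nodal, so both missed the cut of 1.

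**Figure D4:**
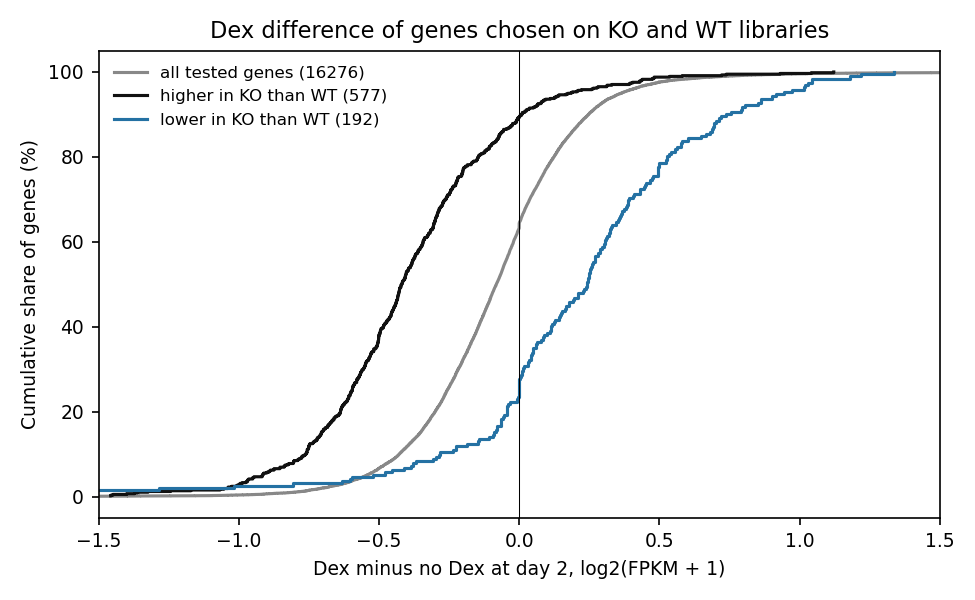
Cumulative share of genes (%) by Dex minus no Dex change at day 2 on the log2(FPKM + 1) scale, for all 16276 tested genes (grey), the 577 genes higher in KO than WT (black) and the 192 lower in KO (blue). The black curve is shifted to falls (median -0.42) and the blue to rises (median 0.24).

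Genes that WT cultures switch in their first 2 days were read in the same way. In WT, 644 genes (3.96%) were higher and 1146 (7.04%) lower at day 2 than at day 0 by at least 1. With Dex, 524 of the 1146 falling genes (45.7%) were lower and 53 (4.6%) higher, with a median of -0.22 (-0.16 rescaled). Of the 644 rising genes, 205 (31.8%) were higher and 102 (15.8%) lower, with a median of 0.08 (0.16 rescaled). Genes that change later in WT lay nearer the shares and the median (-0.08, -0.02 rescaled) of all tested genes. Of 730 genes (4.49%) higher at day 4 than at day 2, 123 (16.8%) were higher and 215 (29.5%) lower with Dex, with a median of -0.07 (-0.02 rescaled). Of 580 genes (3.56%) lower at day 4, 76 (13.1%) were higher and 228 (39.3%) lower, with a median of -0.17 (-0.10 rescaled).

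**Figure D5:**
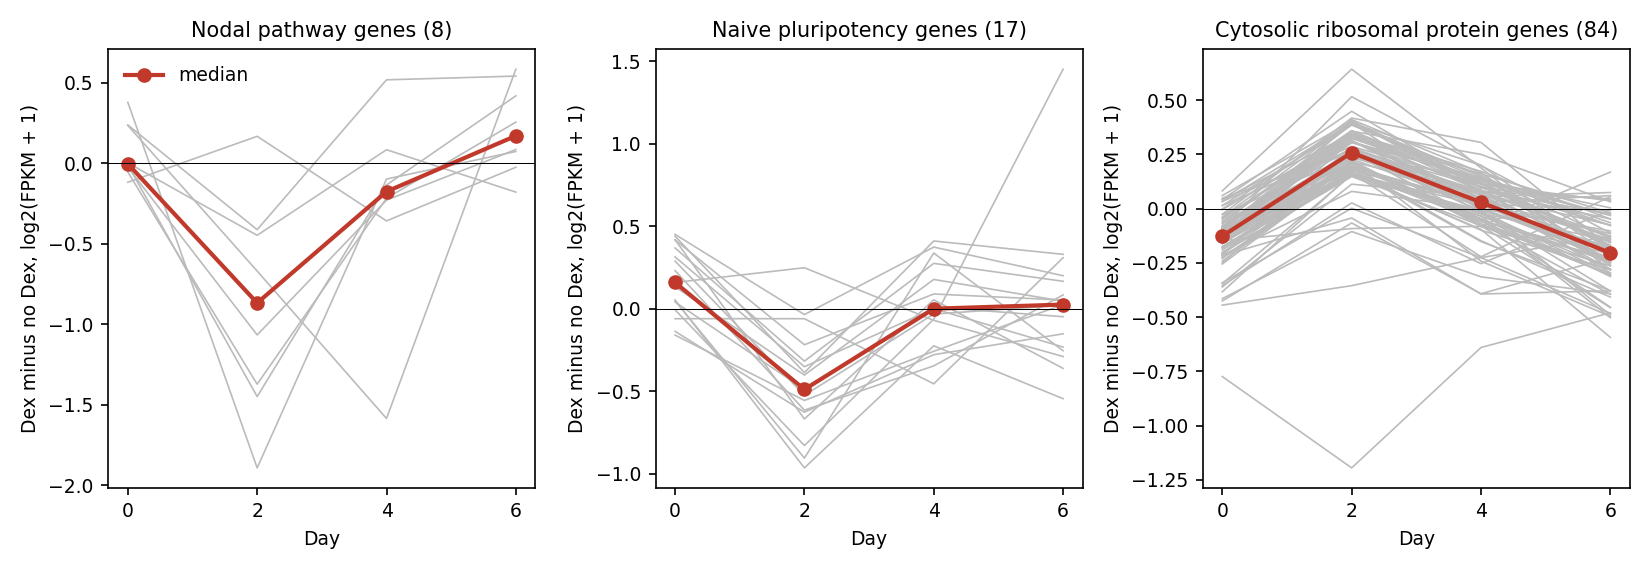
Dex minus no Dex change on the log2(FPKM + 1) scale at days 0, 2, 4 and 6, each panel with its own axis, for Nodal pathway, naive pluripotency and cytosolic ribosomal protein genes, with a grey line per gene and the median in red. The day 2 medians (-0.87, -0.49 and 0.26) are the extremes of their panels.

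The naive pluripotency genes followed days as the Nodal genes did. Their median change by label was 0.16 on day 0, -0.49 on day 2, -3e-04 on day 4 and 0.02 on day 6. Of the 17, 15 had a more negative difference on day 2 than on day 0, 14 than on day 4 (13 rescaled) and 14 than on day 6 (11 rescaled). The shares of all tested genes that did so were 32.4%, 20.7% and 28.8%. Nanog, of the core list, also fell at day 4 (-0.96), where the difference between days was 0.09 (adjusted p = 0.317). Wtap fell at days 4 and 6 as well (-0.53 and -0.41), by less than at day 2, with a difference of -0.22 (adjusted p = 0.00172) against day 4. The median of the stress response genes was 0.15 on day 2 and 0.48 on day 6.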

How the data were processed

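The deposited table held 1 FPKM value per gene and library, a unit taken from the table's name; the authors computed it before deposit. STAR, Cuffdiff and mm10 are named in the submitters' processing notes, without versions. Of 55492 gene rows, the 16276 with at least 1 FPKM in at least 2 of the 32 libraries were tested on log2(FPKM + 1). The fit was limma 3.58.1 in R 4.3.3 (moderated test with a mean-variance trend) over all 32 libraries as 16 groups, and every adjusted p in the text is limma's, by Benjamini-Hochberg over all tested genes, called under 0.05. The fit was tested on simulated data for the day 2 comparison over its 16276 genes: of 100 genes changed by 0.5, 87.3 were recovered on average, and of 100 changed by 1, 97.9, with 4.9% of calls false. Changed genes were drawn only from those with a mean log2(FPKM + 1) of at least 2 without Dex, so recovery at lower levels was not measured. The false share holds for simulated data in which few genes change, unlike the real comparison.

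Depth was estimated from the steps of low FPKM values of 10916 genes of 600 to 1600 bases, where 90.3% to 92.3% of values in the 4 compared libraries, and 81.8% to 93% over all 32, lay within 0.2 of a whole fragment (40% by chance). The 32 libraries ranged from 28.1 to 51.9 M fragments. Duplicates had independent library preparations, per the labels. Replicate numbers did not pair libraries across groups (correlations of deviations from -0.09 to 0.13 over 120 pairs of groups).

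The comparison, the 36 gene lists and the tests were chosen with earlier results of these data known; 1 list member is not reported here. The genes named are Mettl3, Nr3c1, the eGFP row, list members, and the 12 largest rises and 12 largest falls called under both scalings, with groups that do not overlap, at least 5 FPKM in the higher group and a gene symbol that is not a provisional name. For each comparison of days, the 3 largest each way were named among genes called under both scalings, with at least 5 FPKM in the highest of the 4 groups and such a symbol; groups could overlap. Alternatives were a pseudocount of 0.1, no filter, a mean of at least 5 FPKM, median-of-ratios rescaling, a fit of the compared groups only, a replicate block, a change of at least 1, and leaving out each library. Promoters are from RefSeq (GRCm38.p6), and 64 of 84 ribosomal protein genes and 17 of 20 glucocorticoid targets matched.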

Additional observations from a re-analysis of the deposited data

Results flagged for a closer look

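What Dex the day 0 libraries labelled as Dex treated had received is unclear from the treatment notes, so differences from day 0 rest on those labels. The difference between libraries labelled with and without Dex differed between days by limma's interaction term for many genes. Between day 2 and day 0 it differed for 7319 genes, 2048 more positive and 5271 more negative on day 2 (3239 and 3899 rescaled). Between day 2 and day 4 it differed for 5087 genes, 1713 and 3374 (2345 and 2516 rescaled). Between day 2 and day 6 it differed for 6464 genes, 1781 and 4683 (2796 and 3397 rescaled).

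Against day 0, the 3 largest positive differences of log2 change were those of Bc1 (8.32), H2ac14 (4.97) and Rpgrip1 (2.995), and the 3 largest negative ones those of Rn7s2 (-8.92), Zfp978 (-2.86) and Lefty2 (-2.27). Bc1 was listed at 0 in both Dex libraries of day 0, at 13.6 and 39.4 FPKM without Dex on that day, and at 0 in both no Dex libraries of day 2. Rn7s2 was at 0 and 86.5 FPKM in the no Dex duplicates of day 2. Against day 4 they were Bc1 (3.72), Cxcl12 (2.81) and Cyp26a1 (2.71), and the eGFP row (-4.40), Rax (-3.39) and Lhx2 (-2.72). Against day 6 they were Krtdap (2.23), Pax3 (2.06) and Tal2 (1.85), and eGFP (-6.99), Pmel (-5.23) and Trpm1 (-5.09). The eGFP row was at or below 0.32 FPKM in all 4 day 2 libraries, so its values come from the later days. Rax, Lhx2, Cyp26a1, Pax3, Tal2 and Trpm1 were also below 1 FPKM in each of those libraries. The Dex change at day 4 was 3.34 for Rax, 2.54 for Lhx2, -2.47 for Cyp26a1 and -2.07 for Cxcl12. At day 6 it was -2.09 for Pax3, -1.58 for Tal2, 4.90 for Trpm1 and 4.7 for Pmel. On day 2, Cxcl12 changed by 0.73 and Pmel by -0.54.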

How the results depend on the processing

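The number of genes called between Dex and no Dex at day 2 stayed within 1.5 times of 7204 with a pseudocount of 0.1 (6952), no filter (7024 of 34331), a mean of at least 5 FPKM (5508 of 9412), rescaling (6713) and the compared groups alone (5190). It ranged from 5873 to 6043 with 1 library left out, where the lone library is assumed to vary like the other groups. A change of at least 1 was met by 76 genes, and by 351, 184 and 431 for the differences from days 0, 4 and 6. With 1 library left out the difference from day 0 was called for 6679 to 6790 genes, that from day 4 for 4209 to 4410, and that from day 6 for 5659 to 5843. A replicate block gave 7173 genes for day 2 and 7314, 5036 and 6415 for the differences between days, although the numbers share no stated source. Rescaling moved the medians of genes higher and lower in KO to -0.349 and 0.276, of genes rising and falling in WT by day 2 to 0.157 and -0.165, and of those rising and falling by day 4 to -0.0179 and -0.0973. Genes with small changes turned sign: after rescaling Mettl3 (0.0156), Klf5 (0.0501), Socs3 (0.0205), Cdh1 (0.0901), Dll1 (0.0558), Neurod1 (0.0406), Per1 (0.0615) and Rpl36al (0.026, called lower as deposited), and with 1 library left out Klf5 (-0.09 to 0.0183), Rax (-0.103 to 4.2e-05), Six3 (-0.0507 to 0.116), Mettl14 (-0.0291 to 0.0712), Cdh1 (-0.024 to 0.0211), Dll1 (-0.0787 to 0.04), Neurod1 (-0.0737 to 0.00505) and Per1 (-0.0675 to 0.029). The causes were not tested. Of 146 genes named for day 2, 5 lost their call with the same sign after rescaling, 7 with a pseudocount of 0.1, 4 with no filter, 1 (Six6, adjusted p = 0.0555) with the block, 8 to 10 with 1 library left out, and 13 in the fit of the compared groups: Gbx2, Pax6, Six6, Igf2bp3, Smad6, Gata6, Sox17, Tsc22d3, Fkbp5, Dlk1, Fabp7, H2ac14 and Krtdap. Bax gained a call there (adjusted p = 0.0162) and with the block (adjusted p = 0.0456). Of 70 counts over lists, 13 moved by over 1.5 times in that fit. At these depths a gene with a 2 kb transcript and 3 fragments reads 0.042 to 0.047 FPKM, so lower values were not distinguishable from 0.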

Other observations

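Some gene groups moved in parts, where 12.7% of all tested genes were higher and 31.5% lower (18.7% and 22.5% rescaled). Of 20 hypoxia and glycolysis genes, 9 were higher and 5 lower with Dex at day 2 (11 and 4 rescaled): Hk2, which traps glucose, read 46.2 and 47.9 FPKM with Dex and 35.1 and 31.3 FPKM without (0.49), Ldha, which makes lactate, 2567 and 2567 FPKM with Dex and 2008 and 2033 FPKM without (0.35), and Aldoa, a glycolytic aldolase, 2028 and 2027 FPKM with Dex and 1570 and 1580 FPKM without (0.36). Ankrd37, a hypoxia target, fell to 18.4 and 18.1 from 26.2 and 26.4 FPKM (-0.50). Of 21 cholesterol and fatty acid synthesis genes, 4 were higher and 10 lower, but 5 and 4 after rescaling. Among 8 DNA methylation enzymes 4 were lower and 1 higher, the fall led by Tet1, which oxidises methylcytosine, at 10.6 and 10.1 FPKM with Dex and 17 and 19.1 FPKM without (-0.75 ± 0.08 SE, adjusted p = 2.67e-07).

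Of 10 immediate early genes, 2 were higher and 2 lower (3 and 1 rescaled), Egr1 reading 9.52 and 8.57 FPKM with Dex and 14.7 and 14.5 FPKM without (-0.64 ± 0.05 SE, adjusted p = 1.64e-08). The 13 mitochondrially encoded genes had 2 higher and 2 lower (5 and 0 rescaled), and their summed level was 95940 and 92410 FPKM with Dex and 104600 and 101000 without. Of 9 housekeeping genes, 5 were higher and 1 lower (6 and 1 rescaled), where 12.7% and 31.5% of all tested genes were. Grouped by chromosome, the median change ran from -0.12 on chromosome 4 to -0.02 on X.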
